A study of Mus musculus with 47 samples.

Results

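Nuclear genes for subunits of respiratory complexes II to V were followed in mouse tibialis anterior muscle across 12 groups of libraries. Members were all protein-coding genes of the deposited table named Sdha, Sdhb, Sdhc, Sdhd or Cyc1, or with a symbol starting with Uqcr, Cox4, Cox5, Cox6, Cox7, Cox8 or Atp5. This gave 45 of 13500 genes, with 4 in complex II, 9 in complex III, 15 in complex IV and 17 in complex V. Of the 49 protein-coding annotation entries with such names, 4 were not analysed here, namely Cox6b2, Cox7b2, Cox8c and a second entry for Atp5o. Another 4 genes of the table with such symbols are annotated as pseudogenes and were left out. The name rule takes in Atp5s, a coupling factor beside the ATP synthase, and Cox7a2l, a protein of respiratory supercomplexes, which are not core subunits.

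The respiratory chain of the inner mitochondrial membrane passes electrons from NADH and succinate to oxygen. Complex II oxidises succinate, complex III passes electrons from ubiquinol to cytochrome c, complex IV passes them to oxygen, and complex V uses the proton gradient to make ATP. Complex II is coded wholly in the nucleus, while complexes III, IV and V join nuclear subunits to a few made inside the mitochondrion. Several subunits of complex IV come in a heart and muscle form and a ubiquitous form, and the c ring of complex V is coded by a set of genes with the same mature protein. Glucocorticoids and catecholamines from the adrenal gland are known to act on muscle fuel use.

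The study compared adrenalectomy, hormone injection and clock genotype in the tibialis anterior, a shin muscle made mostly of fast fibres, taken whole from female C57BL/6 mice fed ad libitum. Muscles came from lights-on (zeitgeber time 0, ZT0) or 12 hours later (ZT12), and RNA was sequenced from bulk tissue. In such samples, fewer cells of a type and less RNA per cell cannot be told apart. The wild-type (WT) groups were WT ADX+DEX, WT ADX+ADR, WT ADX and WT sham. ADX mice lost both adrenal glands in 2 operations and drank 0.9% saline with 1% glucose. WT ADX+DEX mice also had 5 mg/kg dexamethasone, a synthetic glucocorticoid, and WT ADX+ADR mice 0.5 mg/kg adrenaline, by injection into the abdomen at ZT12 for 10 days. The protocol text can be read as placing a 2-week wait after the injections, so whether hormone was still present when muscle was taken is not known here. No vehicle-injected group was analysed here, so injection and hormone cannot be told apart. The RE-RE groups were RE-RE ADX and RE-RE sham. RE-RE mice carry Bmal1(stopFL/stopFL), a blocked copy of the core clock gene Bmal1, with Syt10-Cre(-/tg), which is active in brain, and Hsa-Cre(-/tg), which is active in skeletal muscle, and each Cre restores Bmal1 where it is active. There were 3 libraries of WT ADX at ZT0 and 4 of every other group. Mice were 12 to 15 and 13 to 17 weeks old in WT ADX at ZT0 and ZT12, against 9 to 11 and 10 to 12 weeks in WT sham. Ages were 11 to 14 and 14 weeks in WT ADX+DEX, 14 and 13 to 14 in WT ADX+ADR, 8 to 15 and 12 to 18 in RE-RE ADX, and 9 to 14 and 11 to 14 in RE-RE sham.

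Values are FPKM, fragments scaled by transcript length and library size. Levels of different genes can be set side by side only as far as the length used fits the transcript made, which was not checked here. Reads were single-end and 60 bases long, per the labels, and counts were not used here. Of all deposited values 1.59% were at 0, and no value of a member was. An exact 0 in this file is only a listing and was not read as absence: mt-Co3, a mitochondrially encoded subunit that muscle uses, was listed at 0 in all WT ADX and WT sham libraries of ZT0, in 3 of 4 WT ADX and 4 of 4 WT sham libraries of ZT12, and in no library of the other groups. All 45 members passed the filter of at least 1 FPKM in at least 3 libraries. Skeletal muscle markers stood high in every group, with a sum of 69810 to 98572 FPKM over 10 genes. Within their group, 40 libraries shared 25 to 103 exact low values with another library, while 7 libraries shared at most 1. These 7 were 1 library each of WT sham ZT0, WT sham ZT12, RE-RE sham ZT0, RE-RE sham ZT12 and RE-RE ADX ZT12, and 2 libraries of RE-RE ADX ZT0. Libraries of a group may therefore not be independent, and p-values may be too small. Each main count below is also given without these 7 libraries.

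Upstream sequences are shown for the 3 c ring genes, whose levels moved unlike each other, and for Cox6a1, one of the few members higher after adrenalectomy. Each is the run of 250 bases before the RefSeq start site on GRCm38.p6, read 5′ to 3′ on the minus strand, at chr11:96075632-96075881 for Atp5g1, chr15:102671048-102671297 for Atp5g2, chr2:73911327-73911576 for Atp5g3 and chr5:115348959-115349208 for Cox6a1. Capitals mark exact matches, on either strand, to an oestrogen-related receptor (ERR) element, an NRF1 site, an ETS site, an E-box or an Sp1 site.
Atp5g1: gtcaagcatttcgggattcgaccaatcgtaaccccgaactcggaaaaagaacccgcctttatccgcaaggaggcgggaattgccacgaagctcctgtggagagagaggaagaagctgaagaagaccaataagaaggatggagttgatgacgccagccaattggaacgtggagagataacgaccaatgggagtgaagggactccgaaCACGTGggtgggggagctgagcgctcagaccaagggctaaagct
Atp5g2: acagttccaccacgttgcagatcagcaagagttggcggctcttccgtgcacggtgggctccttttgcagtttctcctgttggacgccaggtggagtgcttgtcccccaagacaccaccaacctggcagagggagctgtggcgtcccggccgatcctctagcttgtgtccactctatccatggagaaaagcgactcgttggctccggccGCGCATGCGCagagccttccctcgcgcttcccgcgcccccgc
Atp5g3: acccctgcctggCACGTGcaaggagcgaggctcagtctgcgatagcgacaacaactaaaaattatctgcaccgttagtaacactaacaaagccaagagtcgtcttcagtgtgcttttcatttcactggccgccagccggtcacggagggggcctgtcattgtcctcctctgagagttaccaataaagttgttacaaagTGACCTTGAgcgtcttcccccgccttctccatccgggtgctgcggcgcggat
Cox6a1: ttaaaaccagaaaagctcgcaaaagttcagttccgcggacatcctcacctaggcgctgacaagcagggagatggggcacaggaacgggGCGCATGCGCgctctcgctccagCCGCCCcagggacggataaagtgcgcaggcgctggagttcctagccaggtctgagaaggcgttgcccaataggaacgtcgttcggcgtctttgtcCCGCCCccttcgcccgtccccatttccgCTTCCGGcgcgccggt
The Atp5g1 window holds an E-box (CACGTG), the site bound by clock and other helix-loop-helix factors, starting 44 bases before the start site. The Atp5g2 window holds an NRF1 site, its only run of capitals, 42 bases before it. In the Atp5g3 window an ERR element (TCAAGGTCA, here as TGACCTTGA on the strand shown) lies 52 bases and an E-box 238 bases before the start. The Cox6a1 window holds an NRF1 site at 162 bases, Sp1 sites (GGGCGG, here as CCGCCC) at 139 and 44 bases and an ETS site (CCGGAAG, here as CTTCCGG) at 16 bases. RefSeq promoter windows were matched for 32 members and not for 13. In these windows, which run from 250 bases before to 50 after the start, the ERR element was found in 2 members (6.25%), Sdhd and Atp5g3, against 0.319% of the 9408 genes of the table with a window. The NRF1 site was in 4 members (12.5%), namely Uqcrc1, Cox6a1, Atp5g2 and Atp5k, against 2.38% of the 9408 genes. The ETS site was in 12 members (37.5%) against 19.9%, the E-box in 3 (9.38%) against 11.9% and the Sp1 site in 10 (31.2%) against 68.7%. The palindromic glucocorticoid receptor consensus site was in 0 of the 32 windows and in 0.425% of the 9408 genes. These matches are descriptions of letters in a window.

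Members are among the most abundant transcripts of this muscle, and 33 of 45 averaged at least 100 FPKM over the 47 libraries. Atp5a1, the F1 alpha subunit of complex V, was highest at 874 FPKM and ranked 45 among all genes. It was followed by Atp5b, the F1 beta subunit, at 754 FPKM and by Cox6a2, the muscle form of subunit 6a, at 737 FPKM. Averages under 30 FPKM were found for 6 members: Atp5g1, Cox8a, Cox6a1, Atp5g2, Atp5s and Cox4i2. Cox4i2, the form of subunit 4 known from lung and other oxygen-sensing tissue, was lowest at 3.68 FPKM and ranked 6513.

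Most members had their lowest level in the same group. The lowest of the 12 group means was that of WT ADX at ZT0 for 32 of the 45 members, of WT ADX+DEX at ZT12 for 5 and of WT ADX at ZT12 for 4. Such counts were not made over all genes, so they cannot show that this is particular to the members. WT ADX at ZT0 also had the lowest mean summed FPKM of the 12 groups, at 362621. The highest mean was that of WT sham at ZT0 for 15 members, of WT ADX+DEX at ZT0 for 11 and of WT ADX+ADR at ZT12 for 10. Group means spanned 2.13-fold for Atp5g1, 2.04-fold for Cox4i2 and 1.98-fold for Cox6a2. For the membrane anchor Sdhc of complex II they spanned 1.17-fold.

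**Figure D1:**
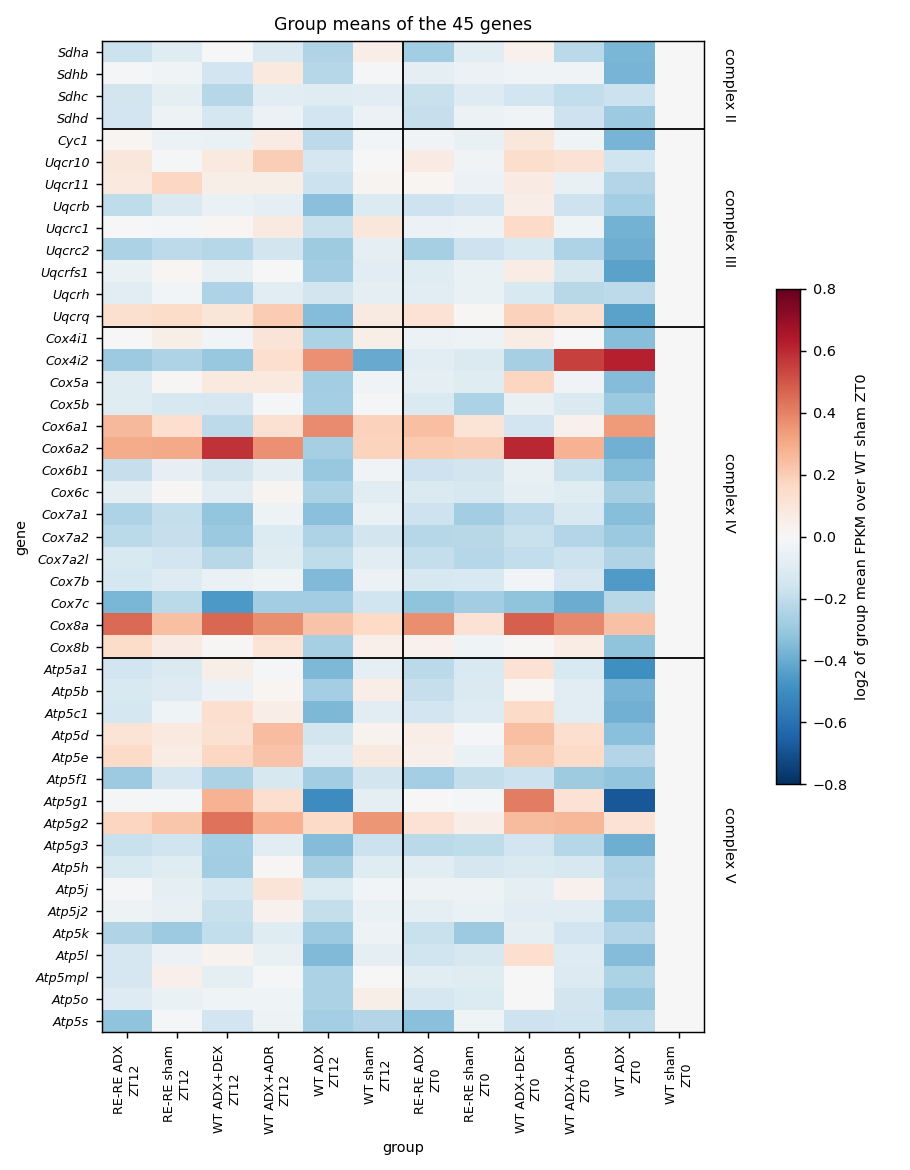
Log2 of the group mean FPKM over the mean of WT sham at ZT0 for the 45 genes (down the page, by complex) in the 12 groups (across, ZT12 left of ZT0). The WT ADX columns are blue for most genes, while Cox4i2, Cox6a1, Cox8a and, more palely, Atp5g2 are red there.

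Averaged over the members on the log2 scale, expression in WT ADX stood at 83.3% of WT sham at ZT0 and at 86.7% of that same level at ZT12. In the 3 WT ADX libraries of ZT0 the average was 82.8% to 83.9%, against 90.6% to 104% in the 4 WT sham libraries of that time. By complex, WT ADX at ZT0 stood at 81.2% for complex II, 80.2% for complex III, 88.7% for complex IV and 80.9% for complex V, each of its own WT sham mean. At ZT12 the same values were 88.3%, 85.2%, 89.9% and 84.4%, against 98.5%, 98.6%, 98.0% and 98.0% in WT sham of ZT12. For complexes II, III and V the WT ADX and WT sham libraries did not overlap at either time. For complex IV the lowest WT sham library of ZT0 (87.7%) lay below the WT ADX libraries (88.3% to 89.1%). The average over all members was 101% in WT ADX+DEX, 96.5% in WT ADX+ADR, 94.2% in RE-RE ADX and 94.1% in RE-RE sham at ZT0, and 96.4%, 102%, 95.5% and 97.7% at ZT12.

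**Figure D2:**
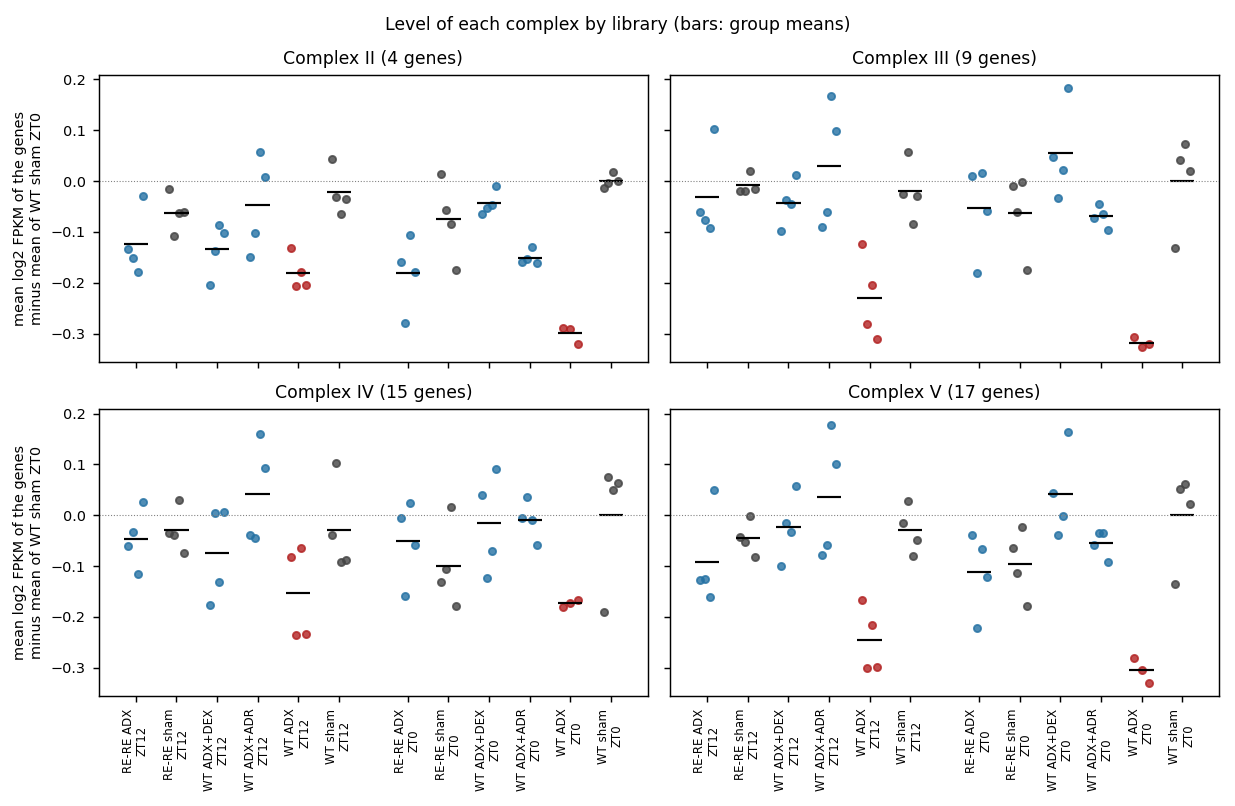
Mean log2 FPKM of each complex's genes minus the mean of WT sham at ZT0, 1 point per library, with bars at group means and ZT12 left of ZT0. WT ADX (red) is the lowest group in each panel at both times, between -0.15 and -0.32 on this log2 scale.

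Adrenalectomy in WT mice was compared with sham surgery at ZT0 by limma over 12000 genes, with p-values adjusted by the Benjamini-Hochberg method and called under 0.05. Of the 45 members 38 fell and 2 rose, while 32% of all genes tested were called, 19.4% as lower. The members' median log2 change was -0.30, against -0.02 over all genes tested. All WT ADX libraries lay below all WT sham libraries for 32 members, against 17.7% of all genes. Falls were called for 4 of 4 members of complex II, 8 of 9 of complex III, 11 of 15 of complex IV and 15 of 17 of complex V, and both rises were in complex IV. Without the 7 libraries that stand apart 31 members fell and 2 rose, and with age as a covariate 31 fell and 3 rose. With the replicate number as a block and only the groups compared, the calls were lost, as given in the last section. When each library is rescaled to the same summed FPKM, the median of all genes shifts by 0.18, and 15 members fell and 4 rose, with a members' median of -0.12 against 0.16 over all genes.

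In complex II every subunit fell at ZT0. Sdha, the flavoprotein that oxidises succinate (ENSMUSG00000021577, chromosome 13, 74322254 to 74350280), had 269, 249 and 265 FPKM in WT ADX, against 349, 336, 339 and 322 FPKM in WT sham. Its log2 change was -0.37 (adjusted p = 1.1e-05, limma), and the groups did not overlap. Sdhb, the iron-sulfur subunit, had 167, 174 and 174 FPKM in WT ADX, against 211, 221, 226 and 231 FPKM in WT sham (log2 change -0.37). The anchors Sdhd and Sdhc fell less, by 0.29 and 0.17 on the log2 scale.

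In complex III the catalytic subunits fell together. Uqcrfs1, the Rieske iron-sulfur protein (ENSMUSG00000038462, chromosome 13, 30540308 to 30545362), had 303, 313 and 314 FPKM in WT ADX, against 397, 411, 444 and 417 FPKM in WT sham. That is a log2 change of -0.43 ± 0.06 (SE, adjusted p = 4.1e-07), with no overlap. Cyc1, cytochrome c1, had 301, 305 and 301 FPKM in WT ADX, against 376, 383, 415 and 393 FPKM in WT sham (log2 change -0.37). The small subunit Uqcrq had 102, 94.3 and 102 FPKM in WT ADX, against 111, 141, 139 and 144 FPKM in WT sham (log2 change -0.42 ± 0.10, adjusted p = 0.00092). Its lowest WT sham library was still above the highest WT ADX library. The core proteins Uqcrc1 (-0.38) and Uqcrc2 (-0.39) also fell, and the small subunit Uqcr10 did not pass the test (log2 change -0.15, adjusted p = 0.15).

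Complex V fell on both its catalytic head and its membrane part. Atp5a1, F1 alpha (ENSMUSG00000025428), had 677, 669 and 671 FPKM in WT ADX, against 912, 935, 967 and 957 FPKM in WT sham, a log2 change of -0.49 ± 0.05 (SE, adjusted p = 2e-08). The 3 WT ADX libraries lay within 8 FPKM of each other and far below the lowest WT sham library. Atp5b, F1 beta, had 620, 603 and 635 FPKM in WT ADX, against 754, 820, 835 and 804 FPKM in WT sham (log2 change -0.37). The F1 gamma subunit Atp5c1, the shaft of the rotor, fell by 0.38. The peripheral stalk members Atp5f1, Atp5h, Atp5j and Atp5o changed by -0.32, -0.24, -0.23 and -0.30 on the log2 scale, all past the test. Atp5k, membrane subunit e, did not pass (log2 change -0.23, adjusted p = 0.11).

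The c ring genes had unlike changes. Atp5g1 (ENSMUSG00000006057, chromosome 11, 96068852 to 96075670) had 17.8, 17.2 and 17.7 FPKM in WT ADX, against 24.7, 28.0, 30.7 and 29.1 FPKM in WT sham. Its log2 change of -0.68 ± 0.09 (SE, adjusted p = 9.6e-07) was the largest fall among the members, and the groups lay well apart. Atp5g3, the c ring gene with the highest FPKM, had 225, 229 and 228 FPKM in WT ADX, against 271, 302, 315 and 306 FPKM in WT sham (log2 change -0.39, adjusted p = 2.4e-05). Atp5g2 had 15.3, 14.5 and 12.8 FPKM in WT ADX, against 11.5, 14.1, 13.3 and 13.4 FPKM in WT sham, and did not pass (log2 change 0.12, adjusted p = 0.34). The Atp5g1 share of the summed c ring FPKM was 6.78% in WT ADX at ZT0, against 8.27% in WT sham, and the ranges of 6.62% to 6.89% and 8.03% to 8.55% did not overlap. The Atp5g2 share was 5.48% in WT ADX, against 3.85% in WT sham. The size of these shares depends on the transcript lengths used for FPKM. The longest annotated coding transcript has 4715 bases for Atp5g1, 753 for Atp5g2 and 723 for Atp5g3.

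In complex IV the muscle and ubiquitous forms of subunit 6a were called in opposite directions, and those of subunits 7a and 8 were not. Cox6a2, the heart and muscle form of subunit 6a, had 510, 467 and 464 FPKM in WT ADX at ZT0, against 538, 663, 630 and 675 FPKM in WT sham (log2 change -0.38, adjusted p = 0.0034). Cox6a1, the ubiquitous form (ENSMUSG00000041697, chromosome 5, 115345642 to 115348981), had 20.4, 23.6 and 24.0 FPKM in WT ADX, against 16.5, 18.4, 19.4 and 17.3 FPKM in WT sham, a log2 change of 0.34 ± 0.09 (SE, adjusted p = 0.0048). Both pairs of groups were free of overlap, with the muscle form low and the ubiquitous form high in WT ADX. The Cox6a2 share of both was 95.5% in WT ADX, against 97.2% in WT sham. Cox8b, the muscle form of subunit 8, fell by 0.31 on the log2 scale (adjusted p = 0.029), while its ubiquitous partner Cox8a changed by 0.24 (95% interval 0.03 to 0.46, adjusted p = 0.071). Subunit 7a differed from these: Cox7a1, the muscle form, and Cox7a2, the ubiquitous form, both fell, by 0.33 and 0.29, and the Cox7a1 share was 74.2% in WT ADX and 74.6% in WT sham.

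Subunit 4 had the largest rise. Cox4i2 (ENSMUSG00000009876, chromosome 2, 152754173 to 152765037) had 4.74, 5.95 and 6.03 FPKM in WT ADX at ZT0, against 3.41, 3.82, 3.55 and 3.71 FPKM in WT sham (log2 change 0.61 ± 0.18, SE, adjusted p = 0.0081). Its partner Cox4i1, the ubiquitous form, had 304, 298 and 305 FPKM in WT ADX, against 334, 401, 403 and 392 FPKM in WT sham (log2 change -0.33). Cox4i2 was thus 1.81% of the pair in WT ADX, against 0.942% in WT sham. Cox7b, a small subunit coded on the X chromosome, had 165, 158 and 157 FPKM in WT ADX, against 187, 228, 226 and 234 FPKM in WT sham (log2 change -0.45 ± 0.09, adjusted p = 0.00024). The subunits Cox5a (-0.34) and Cox5b (-0.29) also fell, and Cox7c did not pass (log2 change -0.22, adjusted p = 0.084).

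**Figure D3:**
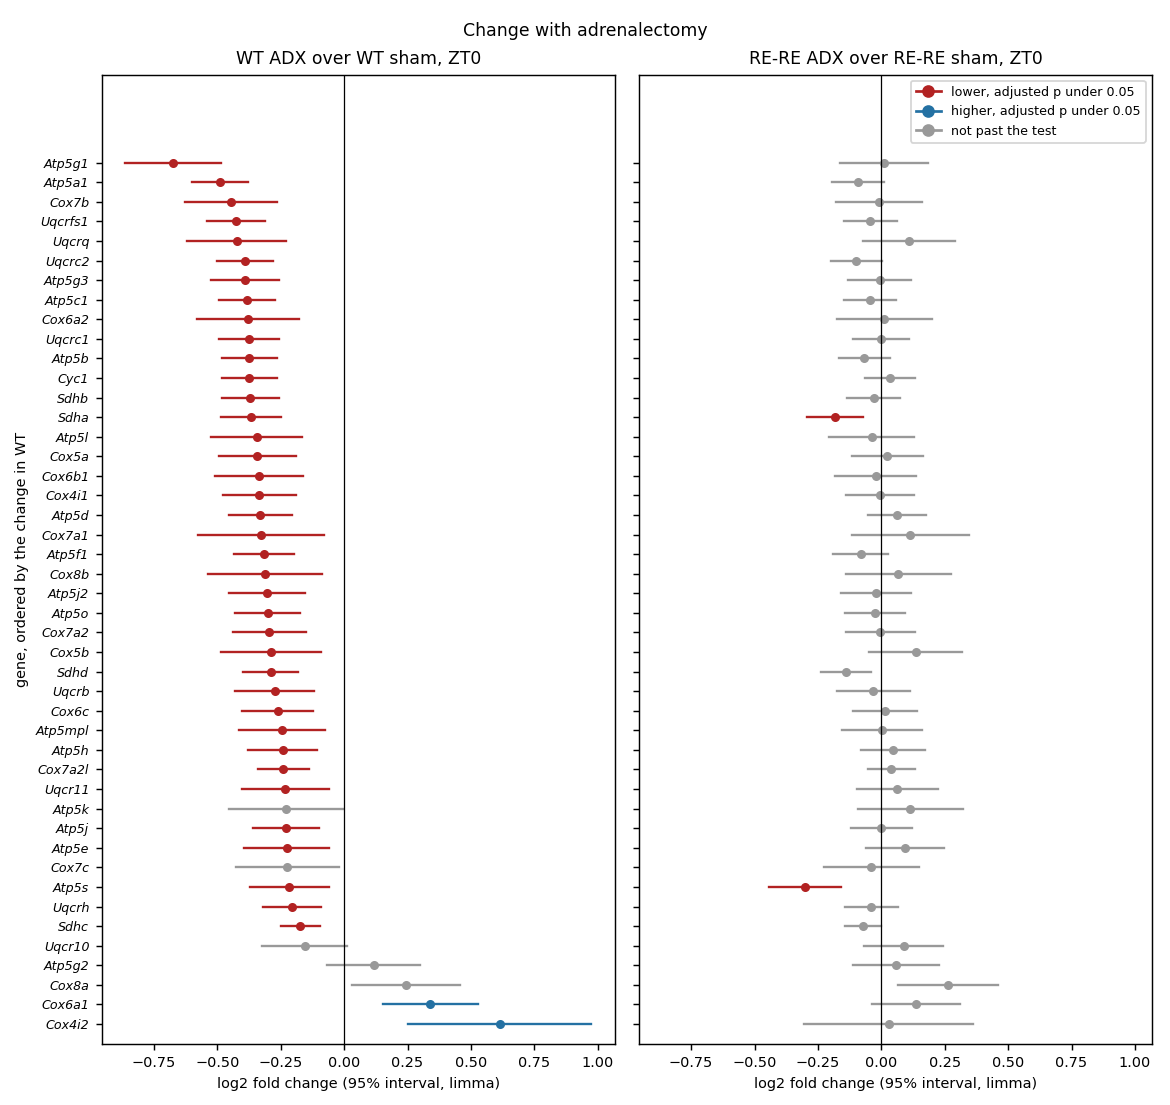
Log2 fold change with adrenalectomy at ZT0 for the 45 genes, WT ADX over WT sham on the left and RE-RE ADX over RE-RE sham on the right, with 95% intervals from limma. In WT 38 genes are red (lower past the test) and 2 blue (higher), and in RE-RE 2 are red.

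At ZT12 adrenalectomy again went with lower levels of most members, with fewer calls. Of the 45 members 27 fell and 1 rose, against 26.9% of all genes called, 16.6% as lower. For 23 members all WT ADX libraries lay below all WT sham libraries, against 14.8% of all genes. The members' median log2 change was -0.19. Falls were called for 2 of 4 members in complex II, 6 of 9 in complex III, 9 of 15 in complex IV and 10 of 17 in complex V. Without the 7 libraries 22 fell and 1 rose, with age as a covariate 8 fell and 1 rose, and with equal summed FPKM 8 fell and 3 rose, with a members' median of -0.03 against 0.14 over all genes. Most calls were again lost with the replicate number as a block and only the groups compared. The ages of WT ADX and WT sham mice did not overlap at either time, and age and surgery cannot be told apart within these groups.

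Cox6a2 led the falls of ZT12, with 512, 532, 522 and 520 FPKM in WT ADX, against 647, 883, 639 and 670 FPKM in WT sham (log2 change -0.43 ± 0.09, SE, adjusted p = 0.0006). Atp5g1 had 21.6, 18.5, 20.2 and 19.2 FPKM in WT ADX, against 25.4, 30.5, 24.6 and 26.0 FPKM in WT sham (log2 change -0.42 ± 0.09, adjusted p = 0.00039). Neither gene's groups overlapped. Uqcrq (-0.41, and adjusted p = 0.067 with age as a covariate), Atp5b (-0.32) and Cox8b (-0.30, adjusted p = 0.025) followed, and Cox8b did not pass with age as a covariate (adjusted p = 0.33). Without WT sham replicate 6 of ZT12 the adjusted p of Cox8b was 0.12, and without WT ADX replicates 5 and 7 of ZT12, each in turn, 0.054 and 0.097. Cox4i2 rose at ZT12 too, with 4.0, 4.41, 5.18 and 5.10 FPKM in WT ADX, against 2.92, 3.16, 2.27 and 2.59 FPKM in WT sham (log2 change 0.77 ± 0.17, adjusted p = 0.00061). Cox6a1 did not pass at ZT12 (log2 change 0.20, adjusted p = 0.082).

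Other genes of the pathway were also lower in WT ADX than in sham mice at ZT0, where 32% of all genes tested were called, 19.4% as lower. Of 36 nuclear subunits of complex I, the NADH dehydrogenase, 30 fell and none rose (median log2 change -0.27). Ndufa10, an accessory subunit, averaged 79.6 FPKM in WT ADX and 105 FPKM in WT sham. Of 77 mitochondrial ribosomal proteins 43 fell and none rose, among them Mrpl50 (-0.38), while of 80 cytosolic ribosomal proteins 20 rose and 3 fell. Of 34 assembly factors of complexes II to V 18 fell and none rose, led by Lrpprc (-0.37), a stabiliser of mitochondrial mRNA, and Cox11 (-0.52), a copper chaperone of complex IV.

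Of 10 other proteins that work beside these complexes 7 fell. Ckmt2, the mitochondrial creatine kinase of muscle, averaged 465 FPKM in WT ADX and 1202 FPKM in WT sham (log2 change -1.37, adjusted p = 3.1e-09), and the phosphate carrier Slc25a3 fell by 0.52. Nnt, the transhydrogenase, is deleted in part in the C57BL/6J substrain. It was listed at 0 in all 3 and all 4 WT ADX libraries of ZT0 and ZT12 and in 2 of 4 WT sham libraries of ZT12, and in no library of the other groups, so the part of substrain in these comparisons was not tested. Of 16 regulators of respiratory chain genes 10 fell and none rose, led by the nuclear receptors Ppara (-2.42, 0.315 FPKM in WT ADX and 1.82 FPKM in WT sham) and Esrrb (-2.06). Ppara averaged under 1 FPKM in WT ADX, where the size of a log2 change is uncertain. Of 6 mitochondrially encoded subunits 4 fell, among them mt-Cytb, cytochrome b of complex III, which averaged 14523 FPKM in WT ADX and 22286 FPKM in WT sham. The smallest adjusted p of these was that of mt-Co2 (8.6e-07), at 3.59 FPKM in WT ADX and 25.0 FPKM in WT sham. These values lie far below those of mt-Cytb, so, as for mt-Co3, they may not give the level of the gene. Its fall is 1 of the 4 counted.

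Cell type markers moved as well between WT ADX and WT sham at ZT0, where 32% of all genes tested were called, 19.4% as lower. Of 10 slow and IIA fibre markers 3 fell and none rose, and their sum was 1212 to 1719 FPKM in WT ADX, against 3139 to 4402 FPKM in WT sham. Myoglobin (Mb) fell by 1.34 on the log2 scale, while the slow light chain Myl2 was listed at 0 in every WT ADX library, which, as for mt-Co3, cannot be read as a low level. The sum takes in that 0, so the lower sum in WT ADX may come in part from the listing. Of 8 endothelial markers 6 rose and none fell, with a sum of 204 to 253 FPKM in WT ADX, against 146 to 163 FPKM in WT sham. Macrophage markers rose in 4 of 9 cases, with a sum of 36.7 to 80.8 FPKM in WT ADX, against 27.3 to 36.3 FPKM in WT sham. Calls for other markers were 1 rise of 8 for fibroblasts and matrix, 1 rise of 5 for tendon, 1 rise and 1 fall of 10 for skeletal muscle, 1 rise and 1 fall of 3 for brown adipocytes, 1 rise and 1 fall of 9 for handling and immediate early genes, and 0 of 7 for white adipocytes and 0 of 5 for erythroid cells. At an unadjusted p under 0.05, for which no share of all genes is given here, the last 2 had 2 and 0 genes. The part of fibre type and of other cells in the members' changes was not tested.

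Dexamethasone or adrenaline given to adrenalectomized WT mice was compared with WT ADX alone, with the doubt about the time since the last injection given above. In WT ADX+DEX at ZT0 33 members rose and 2 fell, against 68.9% of all genes called, 36.4% as higher. In WT ADX+ADR at ZT0 26 rose and 1 fell, against 51.1% called, 26.8% as higher. At ZT12 the counts were 25 risen and 3 fallen in WT ADX+DEX, against 66.3% called, 34.6% as higher, and 33 risen and 1 fallen in WT ADX+ADR, against 53% called, 27.7% as higher. Median log2 changes of the members over WT ADX were 0.27 and 0.17 in WT ADX+DEX at ZT0 and ZT12, and 0.18 and 0.25 in WT ADX+ADR. These comparisons share the WT ADX libraries with the comparison against sham, so the directions are not independent. With equal summed FPKM the median of all genes shifts by -0.15 to -0.24. The split was then 16 risen and 7 fallen in WT ADX+DEX at ZT0 and reversed to 7 risen and 13 fallen at ZT12. In WT ADX+ADR it was 14 and 5 at ZT0 and 16 and 2 at ZT12. The members' medians were then 0.03 and 0.01 in WT ADX+DEX at ZT0 and ZT12, against -0.20 and -0.14 over all genes. In WT ADX+ADR they were 0.02 and 0.10, against -0.15 and -0.14. Without the 7 libraries, none of which is in these groups, the counts were 32 and 2 and 23 and 3 in WT ADX+DEX and 22 and 1 and 33 and 1 in WT ADX+ADR, through the shared estimate of spread.

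The c ring gene Atp5g1 led at ZT0 with both hormones. It had 36.1, 35.3, 36.6 and 41.7 FPKM in WT ADX+DEX and 29.2, 30.8, 32.6 and 29.6 FPKM in WT ADX+ADR, against 17.8, 17.2 and 17.7 FPKM in WT ADX. Its log2 changes were 1.09 ± 0.09 with dexamethasone (SE, adjusted p = 8e-13) and 0.80 ± 0.09 with adrenaline (adjusted p = 1.2e-08). All treated libraries lay above all WT ADX libraries, and those of WT ADX+DEX above those of WT ADX+ADR. At ZT12 Atp5g1 was 0.78 higher in WT ADX+DEX and 0.63 higher in WT ADX+ADR than in WT ADX.

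Cox6a2 showed the same order. At ZT0 it had 947, 915, 926 and 1017 FPKM in WT ADX+DEX and 729, 799, 792 and 716 FPKM in WT ADX+ADR, against 510, 467 and 464 FPKM in WT ADX. The log2 changes were 0.99 ± 0.10 (adjusted p = 5.1e-11) and 0.66 ± 0.10 (adjusted p = 1.3e-06), with the 3 groups in separate ranges. At ZT12 they were 0.84 and 0.62. Cox6a1, its ubiquitous partner, fell by 0.49 in WT ADX+DEX and by 0.31 in WT ADX+ADR at ZT0, and by 0.60 and 0.26 at ZT12. The Cox6a2 share of the pair was 98.3% in WT ADX+DEX, 97.6% in WT ADX+ADR and 95.5% in WT ADX at ZT0.

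Other members past the test with both hormones at ZT0 included Uqcrq (0.61 with dexamethasone and 0.56 with adrenaline) and the F1 delta subunit Atp5d (0.57 and 0.47). The 5 largest rises also held Atp5a1 (0.60) with dexamethasone and Atp5e, F1 epsilon, (0.39) with adrenaline. Atp5a1 also stood higher in WT ADX+ADR, at 845 to 879 FPKM, against 669 to 677 FPKM in WT ADX. Atp5e did so in WT ADX+DEX, at 142 to 166 FPKM, against 106 to 118 FPKM in WT ADX. At ZT12 the 5 largest rises with each hormone included Uqcrq (0.44 and 0.54) and Atp5c1 (0.49 and 0.40). Atp5a1 (0.41) was among them after dexamethasone and Atp5d (0.39) after adrenaline. Cox4i2 fell with dexamethasone, to 3.90, 2.72, 3.04 and 2.39 FPKM in WT ADX+DEX at ZT0, against 4.74, 5.95 and 6.03 FPKM in WT ADX (log2 change -0.90 ± 0.18, adjusted p = 3.1e-05), and by 0.68 at ZT12. Sdhc fell by 0.13 in WT ADX+DEX at ZT12.

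The neighbouring lists moved in the same comparisons. At ZT0 68.9% of all genes were called with dexamethasone, 36.4% as higher, and 51.1% with adrenaline, 26.8% as higher. At ZT12 66.3% and 53% were called. Of 36 complex I genes 32 rose with dexamethasone and 26 with adrenaline at ZT0, with no fall. Slow and IIA fibre markers summed to 4351 to 5769 FPKM in WT ADX+DEX and 2828 to 3070 FPKM in WT ADX+ADR, against 1212 to 1719 FPKM in WT ADX. At ZT12 their sum was 3907 to 4422 FPKM in WT ADX+DEX and 2887 to 3422 FPKM in WT ADX+ADR, against 874 to 1699 FPKM in WT ADX. Endothelial markers at ZT0 fell in 8 of 8 cases with dexamethasone and 6 of 8 with adrenaline, and their sum was 81.4 to 86.4 FPKM in WT ADX+DEX and 134 to 148 FPKM in WT ADX+ADR, against 204 to 253 FPKM in WT ADX. At ZT12 7 and 5 of 8 fell, and their sum was 74.4 to 91.5 FPKM in WT ADX+DEX and 155 to 234 FPKM in WT ADX+ADR, against 197 to 207 FPKM in WT ADX, so that adrenaline did not lower the sum there.

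Handling and immediate early genes summed to 120 to 148 FPKM in WT ADX+DEX and 128 to 203 FPKM in WT ADX+ADR at ZT0, against 57.1 to 59.1 FPKM in WT ADX. At ZT12 the sums were 109 to 162 FPKM in WT ADX+DEX and 347 to 492 FPKM in WT ADX+ADR, against 15.1 to 79.7 FPKM in WT ADX, with 5 and 7 of 9 genes called as higher. Of all genes 34.6% were called as higher in WT ADX+DEX and 27.7% in WT ADX+ADR at that time. Tendon markers at ZT12 summed to 32.3 to 68.4 FPKM in WT ADX+DEX and 38.5 to 84.2 FPKM in WT ADX+ADR, against 1.19 to 17.4 FPKM in WT ADX, with 4 of 5 genes higher in each. The part of these cells and of handling in the members' changes was not tested.

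**Figure D4:**
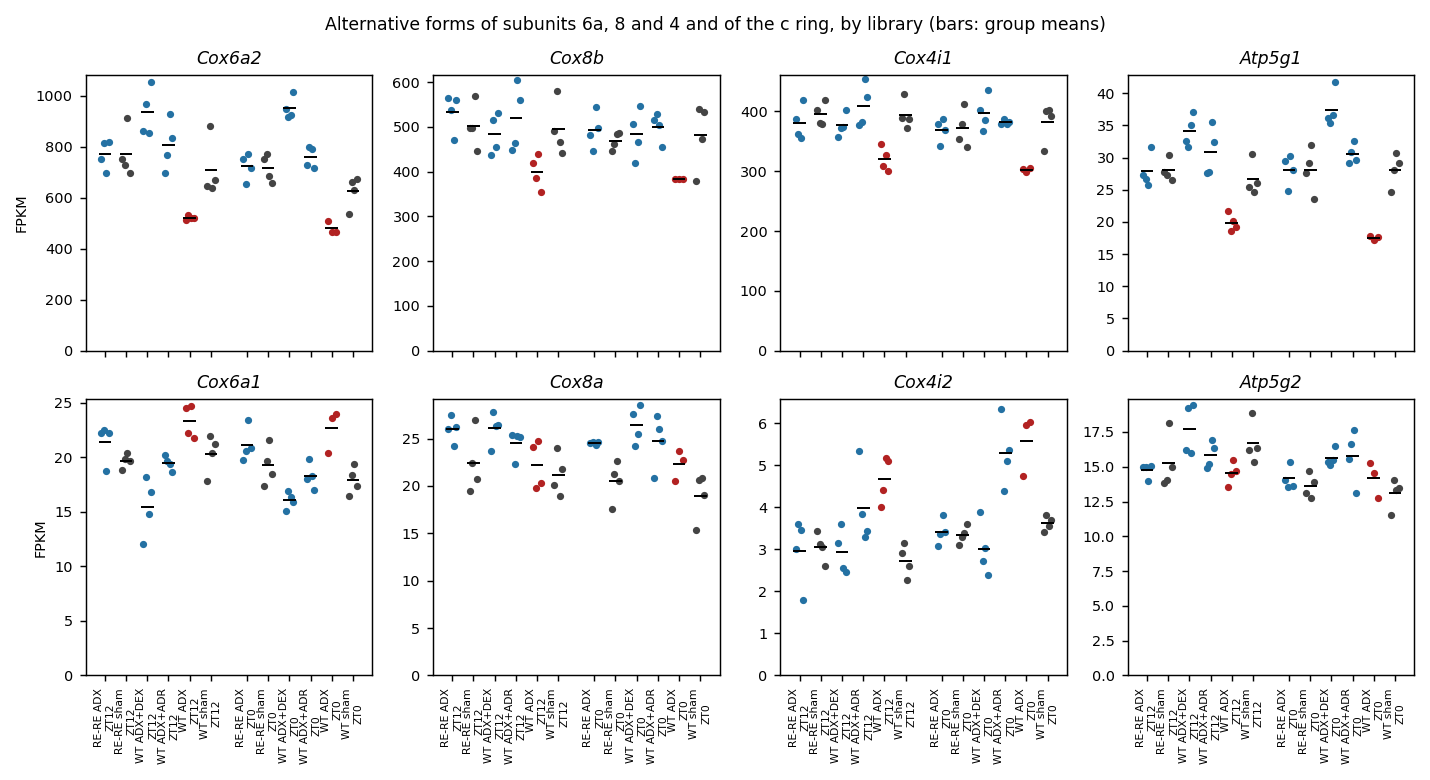
FPKM per library (points) and group mean (bars) for the muscle and ubiquitous forms of subunits 6a and 8, both forms of subunit 4, and c ring genes Atp5g1 and Atp5g2, with ZT12 left of ZT0 and linear axes from 0. Atp5g1 and Cox6a2 are lowest in WT ADX (red) and highest in WT ADX+DEX, and Cox6a1 is highest in WT ADX.

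Set against WT sham, the treated groups held both higher and lower members. In WT ADX+DEX 9 rose and 9 fell at ZT0, against 62.6% of all genes called, and 5 rose and 8 fell at ZT12, against 52.7%. In WT ADX+ADR 5 rose and 13 fell at ZT0, against 43.1%, and 5 rose and 1 fell at ZT12, against 39%. All these counts of called members are shares below those of all genes called. With equal summed FPKM WT ADX+DEX at ZT0 had 7 risen and 15 fallen, with equal medians 10 and 5, with age as a covariate 12 and 4, and without the 7 libraries 9 and 4. At ZT12 WT ADX+DEX had 7 risen and 2 fallen with age as a covariate, against 4 risen and 9 fallen without the 7 libraries. WT ADX+ADR had 5 and 7 with age and 4 and 10 without the 7 libraries at ZT0, and at ZT12 11 and 1 with age and 2 and 0 without the 7 libraries.

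Cox6a2 overshot the sham level with dexamethasone. It had 947, 915, 926 and 1017 FPKM in WT ADX+DEX at ZT0, against 538, 663, 630 and 675 FPKM in WT sham (log2 change 0.61 ± 0.09, SE, adjusted p = 5.4e-07), and was 0.40 higher at ZT12 with overlapping groups. Atp5g1 was also above WT sham in WT ADX+DEX, by 0.41 at ZT0 (adjusted p = 8.5e-05) and by 0.36 at ZT12. Its share of the c ring was 11.6% and 11.4% in WT ADX+DEX at ZT0 and ZT12, against 8.27% and 8.64% in WT sham. Cox8a was higher by 0.49 in WT ADX+DEX at ZT0, at 27.6, 24.2, 25.5 and 28.5 FPKM in WT ADX+DEX against 15.3, 20.6, 20.9 and 19.0 FPKM in WT sham. Atp5g2 and Atp5d were higher by 0.26 and 0.24 at ZT0, and Atp5c1, Cox8a and Atp5a1 by 0.21, 0.30 and 0.12 at ZT12. Atp5g2 had adjusted p = 0.054 without WT sham replicate 1. Atp5a1 lost its call without WT sham replicates 6, 7 or 8 or WT ADX+DEX replicates 7 or 8 (adjusted p = 0.097 to 0.14).

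Among the falls against WT sham, Cox7c, a small subunit of complex IV, was lower in WT ADX+DEX by 0.33 at ZT0 and 0.30 at ZT12, and in WT ADX+ADR by 0.40 at ZT0. At ZT0 WT ADX+DEX was also lower for Cox7a2l (-0.20), Cox7a2 (-0.18), Atp5f1 (-0.17) and Atp5s (-0.16), and at ZT12 for Cox6a1 (-0.41), Atp5h (-0.18), the hinge protein Uqcrh (-0.17) and Uqcrc2 (-0.15). In WT ADX+ADR the lower members of ZT0 included Atp5f1 (-0.29), Uqcrc2 (-0.25), Cox7a2 (-0.23) and Atp5g3 (-0.22), and Sdha was lower at ZT12 (-0.18, and adjusted p = 0.071 without WT ADX+ADR replicate 5). In WT ADX+DEX the call of Cox7a2 was lost without replicates 2 or 3 of WT sham or of WT ADX+DEX (adjusted p = 0.051 to 0.091) and that of Atp5s without WT sham replicates 1, 3 or 4 or WT ADX+DEX replicates 2, 3 or 4 (0.051 to 0.16). Those of Atp5h without WT ADX+DEX replicate 5 (0.053) and of Uqcrc2 without WT sham replicate 5 (0.052) were also lost.

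Rises against WT sham after adrenaline were led by Cox4i2. It had 6.34, 4.39, 5.11 and 5.36 FPKM in WT ADX+ADR at ZT0, against 3.41, 3.82, 3.55 and 3.71 FPKM in WT sham (log2 change 0.54 ± 0.17, adjusted p = 0.0085), with no overlap, and its log2 change at ZT12 was 0.52. Its ZT12 call had adjusted p = 0.053 without WT sham replicate 7 and 0.082 without WT ADX+ADR replicate 5, and its ZT0 call 0.075 with age as a covariate. Other rises in WT ADX+ADR were Cox8a (0.39), Cox6a2 (0.28), Atp5g2 (0.26) and Atp5d (0.14) at ZT0, and Atp5d (0.21), Uqcr10 (0.20), Atp5s (0.19) and Atp5c1 (0.13) at ZT12. At ZT0 the call of Cox6a2 was lost without WT sham replicate 1 (adjusted p = 0.081), that of Atp5g2 without WT sham replicate 1 (0.067) or WT ADX+ADR replicate 3 (0.064), and that of Atp5d without replicates 1, 2 or 4 of WT sham or 2, 3 or 4 of WT ADX+ADR (0.062 to 0.21). At ZT12 that of Uqcr10 was lost without WT sham replicates 5, 7 or 8 or WT ADX+ADR replicates 7 or 8 (0.089 to 0.18), and that of Atp5c1 without WT sham replicates 6, 7 or 8 or the same WT ADX+ADR replicates (0.068 to 0.18). The call of Atp5s was lost without WT sham replicates 6 or 8 or WT ADX+ADR replicates 5, 7 or 8 (0.052 to 0.17). Only 3 members were called at ZT12 without WT sham replicate 7 or 8 or without WT ADX+ADR replicate 7 or 8.

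The hormones were also compared with each other, at their different doses. At ZT0 14 members were higher and 1 lower in WT ADX+DEX than in WT ADX+ADR, against 48.6% of all genes called. At ZT12 none was higher and 11 were lower, against 42.6% called. Median log2 changes were 0.10 and -0.10. The difference between these 2 times was not tested. Without the 7 libraries the counts were 11 and 1 at ZT0 and 0 and 10 at ZT12, with equal summed FPKM 5 and 3 and 1 and 15, and without WT ADX+DEX replicate 4 of ZT0 8 members were called at ZT0.

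Higher in WT ADX+DEX than in WT ADX+ADR at ZT0 were Cox6a2 (0.33 ± 0.09, SE, adjusted p = 0.0033), Atp5g1 (0.29), Sdha (0.25), Atp5c1 (0.24) and Atp5a1 (0.24). Sdha had 326, 336, 348 and 369 FPKM in WT ADX+DEX, against 294, 285, 287 and 295 FPKM in WT ADX+ADR, with no overlap. Cox4i2 was lower at both times, by -0.83 at ZT0 (adjusted p = 7.5e-05) and -0.43 at ZT12 (adjusted p = 0.035, and 0.055 to 0.21 without WT ADX+ADR replicates 5 or 6 or WT ADX+DEX replicates 7 or 8, each in turn). Lower at ZT12 were also Cox6a1 (-0.35), Atp5h (-0.29), Atp5j (-0.24) and Sdhb (-0.23). Sdhb had 190, 200, 203 and 207 FPKM in WT ADX+DEX of ZT12, against 214, 223, 250 and 250 FPKM in WT ADX+ADR.

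Adrenalectomy was then compared with sham surgery in RE-RE mice, whose Bmal1 is restored in brain and muscle. At ZT0 no member rose and 2 fell, against 5.45% of all genes called, 3.89% as lower, and at ZT12 no member rose and 1 fell, against 5.32%, 3.55% as lower. These shares of members are near those of all genes. At an unadjusted p under 0.05 there were 5 and 6 members, with no share of all genes at that threshold given here. Median log2 changes were -0.00 and -0.04. No member was called at either time without the 7 libraries. At ZT12 there were 3 calls without RE-RE sham replicate 7 and 2 without RE-RE ADX replicate 8.

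Atp5s, the coupling factor, fell at both times. At ZT0 it had 8.48, 9.30, 8.15 and 8.60 FPKM in RE-RE ADX, against 10.7, 10.3, 9.91 and 11.7 FPKM in RE-RE sham (log2 change -0.30 ± 0.07, SE, adjusted p = 0.011). At ZT12 it had 8.88, 7.90, 8.57 and 9.51 FPKM in RE-RE ADX, against 11.4, 10.8, 11.1 and 9.79 FPKM in RE-RE sham (-0.31 ± 0.07, adjusted p = 0.0093). The groups did not overlap at either time, and without the 7 libraries the adjusted p was 0.16 and 0.089. Sdha fell at ZT0, to 290, 257, 285 and 279 FPKM in RE-RE ADX against 347, 313, 296 and 306 FPKM in RE-RE sham (log2 change -0.18 ± 0.05, adjusted p = 0.041). That call was lost without RE-RE sham replicates 1, 2 or 4 (adjusted p = 0.21, 0.068 and 0.050), without RE-RE ADX replicates 2, 3 or 4 (0.16, 0.063 and 0.077) and without the 7 libraries (0.17). Atp5g1, the leading fall of WT, had 29.4, 24.8, 30.3 and 28.0 FPKM in RE-RE ADX at ZT0, against 27.6, 29.1, 31.9 and 23.5 FPKM in RE-RE sham, with wholly overlapping groups.

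The difference between genotypes was tested directly, as the change with adrenalectomy in RE-RE mice minus that in WT mice. At ZT0 it was past the test for 22 members, all higher, against 10.7% of all genes called, 7.38% as higher. An unadjusted p under 0.05 was found for 39 members, a count that cannot be set against these shares, which are for adjusted p. The median log2 difference was 0.30. Calls were made for 1 of 4 members in complex II, 5 of 9 in complex III, 7 of 15 in complex IV and 9 of 17 in complex V. At ZT12 it was past the test for 7 higher and 1 lower, against 6.43%, 4.82% as higher. When the 7 libraries were left out, 4 of them from the groups of ZT0, 6 members were called at ZT0 and 1 at ZT12. At ZT0 14 members were called without RE-RE sham replicate 4, 13 with age as a covariate and 11 with equal summed FPKM, and at ZT12 3 were called with equal summed FPKM, 1 higher and 2 lower. Leaving out single libraries at ZT12 gave 1 call without RE-RE ADX replicate 8, 3 without WT ADX replicate 6, 4 without WT ADX replicate 7 or RE-RE sham replicate 6 or 8, and 5 without WT sham replicate 5 or 6 or RE-RE ADX replicate 5.

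Atp5g1 had the largest difference of ZT0, at 0.68 ± 0.13 (SE, adjusted p = 0.0004), from a log2 change of 0.01 in RE-RE and -0.68 in WT. Uqcrq (0.53, adjusted p = 0.0074), Cox7b (0.44), Cox5b (0.43) and Cyc1 (0.41, adjusted p = 0.00024) followed. Cox5b did not pass without the 7 libraries (adjusted p = 0.33), nor did Cox7b (0.23) or Uqcrq (0.11). Cox5b also lost its call without WT sham replicates 2, 3 or 4, WT ADX replicates 2 or 3, RE-RE sham replicates 2 or 4 or RE-RE ADX replicates 1 or 3 (adjusted p = 0.054 to 0.079). At ZT12 Cox6a2 (0.43), Atp5g1 (0.41), Atp5b (0.31), Uqcrc1 (0.28) and Atp5a1 (0.25) were past the test as higher. Without RE-RE ADX replicate 8 the adjusted p was 0.091 for Cox6a2, 0.11 for Atp5g1, 0.077 for Uqcrc1 and 0.086 for Atp5a1. Cox6a2 and Atp5g1 also lost the call without WT sham replicate 6, WT ADX replicates 6 or 7, RE-RE sham replicates 5, 6 or 8 or RE-RE ADX replicate 5 (0.052 to 0.11), Cox6a2 without WT ADX replicate 4 or RE-RE ADX replicate 6 (0.061 and 0.062), and Atp5g1 without WT ADX replicate 5 (0.068). Uqcrc1 lost it without WT ADX replicate 6 or RE-RE sham replicate 8 (0.051 and 0.050), and Atp5a1 without WT sham replicate 5, WT ADX replicate 6 or RE-RE sham replicate 6 (0.070, 0.059 and 0.051). Cox4i2 was past it as lower (-0.86 ± 0.23, adjusted p = 0.021), and did not pass without RE-RE ADX replicate 8 of ZT12 (adjusted p = 0.076), the library with the lowest value of 1.80 FPKM. Of 36 complex I genes 22 were past the test at ZT0 as higher. Among the regulators, the coactivator Ppargc1a was the only 1 of 16 called in RE-RE ADX at ZT0, at 4.51 FPKM in RE-RE ADX and 6.97 FPKM in RE-RE sham, and it averaged 5.17 FPKM in WT ADX and 7.93 FPKM in WT sham. Slow and IIA fibre markers summed to 2325 to 2961 FPKM in RE-RE ADX and 2274 to 4154 FPKM in RE-RE sham at ZT0, and their part in the difference was not tested.

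Genotype was compared in sham mice. In RE-RE sham no member rose and 9 fell against WT sham at ZT0, with 24.1% of all genes called, 11.6% as lower, and 1 rose and 2 fell at ZT12, with 19.3% called. The members' share of calls in either direction was thus below that of all genes at both times, while their share of falls at ZT0 was above that of all genes. Leaving out the 7 libraries left 1 call at ZT0 and none at ZT12, and with equal summed FPKM 1 rose and 4 fell at ZT0 and 5 rose and none fell at ZT12. Tendon markers summed to 43.7 to 97.8 FPKM in RE-RE sham, against 2.89 to 34.1 FPKM in WT sham at ZT0, and fibroblast and matrix markers to 328 to 365 FPKM in RE-RE sham, against 93.5 to 172 FPKM in WT sham at ZT12. At ZT12 6 of 8 fibroblast and matrix markers and 8 of 9 handling and immediate early genes were higher in RE-RE sham, and the part of these in the members' differences was not tested. Cox7a2l fell by 0.23 at ZT0 (adjusted p = 0.00038). Cox7a2 (-0.22), Atp5k (-0.29), Cox7c (-0.28) and Cox5b (-0.25) also fell at ZT0, with overlapping groups. Without RE-RE sham replicate 4 the adjusted p was 0.15 for Cox5b, 0.060 for Cox7c, 0.056 for Atp5k and 0.064 for Cox7a2, and without WT sham replicate 2 it was 0.11, 0.063, 0.12 and 0.058 for the same genes. Cox5b and Atp5k also lost the call without WT sham replicates 3 or 4 or RE-RE sham replicates 1 or 2 (0.052 to 0.13), and Cox7c without WT sham replicate 4 or RE-RE sham replicate 2 (0.054 and 0.088). At ZT12 Atp5s rose by 0.22 and Atp5b (-0.16) and Sdha (-0.15) fell. Atp5s lost its call without WT sham replicate 6 or RE-RE sham replicates 5 or 7 (0.063 to 0.13), Atp5b without WT sham replicate 5 or RE-RE sham replicate 7 (0.065 and 0.069), and Sdha without WT sham replicates 5 or 8 or RE-RE sham replicates 6, 7 or 8 (0.069 to 0.14). Leaving out single libraries moved the count of ZT0 to 5 without WT sham replicate 2 or 4, to 4 without RE-RE sham replicate 2 and to 2 without RE-RE sham replicate 4, and that of ZT12 to 1 without WT sham replicate 5 and 0 without RE-RE sham replicate 7.

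Time of day moved few members. In WT sham 1 member was higher and 3 were lower at ZT12 than at ZT0, against 23.5% of all genes called. Counts were 3 higher in WT ADX, against 11%, 2 higher in WT ADX+ADR, against 12.7%, and 1 lower in WT ADX+DEX, against 27.8%. By limma 0 members were called in RE-RE sham, against 10.8%, and 0 in RE-RE ADX, against 0.775%, with 2 and 0 at an unadjusted p under 0.05. The time effect in WT ADX minus that in WT sham was called for 0 members, against 1.54%, with 9 at an unadjusted p under 0.05, and for 1 without WT sham replicate 5. The shares of all genes are for adjusted p, and none is given for the counts at an unadjusted p. When the 7 libraries were left out, 1 member was called in each of WT sham, WT ADX and WT ADX+DEX, and none in the other groups. With equal summed FPKM there were 1 higher and 11 lower members in WT sham, 3 lower in WT ADX+DEX and none in WT ADX and WT ADX+ADR.

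Atp5g2 was the member that was higher at ZT12 in WT sham. It had 16.2, 18.9, 15.4 and 16.3 FPKM at ZT12, against 11.5, 14.1, 13.3 and 13.4 FPKM at ZT0 (log2 change 0.35 ± 0.08, SE, adjusted p = 0.0021), with no overlap. Its call held under every alternative run for it. Atp5s (-0.23, adjusted p = 0.014), Atp5g3 (-0.17) and Atp5f1 (-0.15) were lower at ZT12 in WT sham, and all 3 lost the call without the 7 libraries (adjusted p = 0.10, 0.24 and 0.11). In WT ADX Uqcrc1 (0.20), Atp5d (0.19) and Cyc1 (0.16) were higher at ZT12. Cyc1 had 372, 332, 333 and 320 FPKM at ZT12, against 301, 305 and 301 FPKM at ZT0. In WT ADX+ADR Atp5f1 (0.16) and Sdhc (0.10) were higher, and in WT ADX+DEX Cyc1 (-0.14) was lower. All these calls turned on single libraries. In WT ADX 0 members were called without replicate 2 or 4 and 1 without replicate 3 or 5. In WT ADX+ADR 0 were called without replicate 1, 2, 7 or 8, 1 without replicate 3 or 4 and 5 without replicate 5. In WT ADX+DEX 0 were called without replicate 4, 5 or 6, and 2 to 4 without each of the others. In WT sham 1 was called without replicate 6 and 2 without replicate 2, 3, 4, 7 or 8.

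Some members share sequence with other annotated transcripts, which read counting could split. Of the members 23 had no 60-base window of their transcript in another gene, and 9 had over 20% of such windows shared. These were Atp5l (82.9%), Atp5o (44.5%), Atp5h (41.9%), Uqcrb (37.6%), Atp5f1 (34.4%), Cox7c (26.8%), Cox5a (26.5%), Uqcrc2 (24.4%) and Cox5b (22.5%), and their levels are uncertain to that extent.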

How the data were processed

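RNA from tibialis anterior of 47 mice was sequenced as 60-base single-end reads, per the labels' protocols. The genome build was GRCm38, and the tools named are HISAT2 2.1.0, edgeR 3.30.0, featureCounts 1.6.2, Trim Galore 0.5.0 and FastQC 0.11.8, all per the submitters' processing notes. The deposited table holds the authors' FPKM on a log2 scale for 13500 genes. Its lowest value equals log2 of 0.01, so values were read as log2(FPKM + 0.01). Whether counting used strand is not given in the sources used here. Symbols and positions came from GENCODE M21, which matched 13446 IDs and left 54 without a symbol, and upstream sequences from RefSeq (GRCm38.p6).

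Groups and replicate numbers came from the labels. In limma 3.58.1 (R 4.3.3; lmFit, contrasts.fit, eBayes with trend) 12 group means were fitted to all 47 libraries, with 35 residual degrees of freedom. Genes with at least 1 FPKM in at least 3 libraries (12000) were tested two-sided in 25 comparisons, with Benjamini-Hochberg adjustment within each and a call under 0.05. A fold change is on the log2(FPKM + 0.01) scale. The fit was tested on simulated data with independent libraries, which cannot show how calls behave where libraries of a group are not independent. Group values are means; errors of changes are SE. Whether the libraries are separate mice is known only from their labels, so p-values measure the spread between these libraries.

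The members and gene lists were chosen with earlier results of these data known. Named in each comparison were up to 5 called members with the largest rise and 5 with the largest fall, plus core subunits, alternative forms and the c ring genes. From other lists came the 2 genes with the smallest adjusted p, and a few more were picked after their values were seen. One gene that this rule names is not reported here. Alternatives were log2(FPKM + 1), no filter, equal medians, equal summed FPKM (TPM), only the groups compared, the replicate number as a block, mouse age as a covariate, leaving out the 7 libraries that stand apart, and leaving out each library in turn. Python 3.11.15, numpy 2.4.6, pandas 2.3.3 and matplotlib 3.10.9 made tables and figures.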

Additional observations from a re-analysis of the deposited data

Results flagged for a closer look

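Among 198 sets of a complex mean or a named member in a group of 4 libraries, 13 had 1 library far from the others by Dixon's test, and chance flags about 1 in 20. The log2 level of complex III against WT sham ZT0 was 0.020 in RE-RE sham ZT12 replicate 7 (others -0.020 to -0.016) and 0.10 in RE-RE ADX ZT12 replicate 8 (others -0.09 to -0.06). That of complex IV was -0.19 in WT sham ZT0 replicate 1 (others 0.05 to 0.08), and that of complex V was 0.050 in RE-RE ADX ZT12 replicate 8 (others -0.16 to -0.13). RE-RE ADX ZT12 replicate 8 also stood apart for Cox7a1, at 477 FPKM (others 366 to 382), and for Sdha, at 328 FPKM (others 285 to 292). In the same group replicate 7 was low for Cox6a1, at 18.7 FPKM (others 22.2 to 22.5), and for Atp5g2, at 14.0 FPKM (others 15.0 to 15.1).

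WT sham ZT12 replicate 6 had 883 FPKM of Cox6a2 (others 639 to 670), and replicate 5 had 961 FPKM of Atp5a1 (others 870 to 885). WT ADX+ADR ZT12 replicate 6 had 22.3 FPKM of Cox8a (others 25.2 to 25.3), and WT ADX+ADR ZT0 replicate 1 had 369 FPKM of Uqcrfs1 (others 385 to 388). WT ADX+DEX ZT0 replicate 4 had 298 FPKM of Atp5g3 (others 257 to 261).

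The change with adrenalectomy differed between RE-RE and WT mice for 22 members at ZT0 and for 8 members at ZT12, by the direct test of that difference, against 10.7% and 6.43% of all genes. Without the 7 libraries that stand apart these counts were 6 and 1, and without RE-RE ADX replicate 8 the count of ZT12 was 1.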

How the results depend on the processing

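Of 193 counts of called members under an alternative other than leaving out 1 library, 139 stayed within 1.5 times the reported count. The cause of the other changes was not tested. Each count took rises and falls together, so a count within 1.5 times can hide a turned split. For WT ADX+DEX against WT ADX at ZT12, mostly rises became 7 risen and 13 fallen with equal summed FPKM. With equal summed FPKM (TPM), counts at ZT0 and ZT12 were 19 and 11 for adrenalectomy in WT mice, 1 and 0 for RE-RE ADX against RE-RE sham, 18 for WT ADX+ADR against WT ADX at ZT12, 23 for WT ADX+DEX against WT ADX at ZT0, 8 for WT ADX+DEX against WT ADX+ADR at ZT0, 5 and 5 for RE-RE sham against WT sham, 11 and 3 for the difference between genotypes, and for time of day 12 in WT sham, 0 in WT ADX, 0 in WT ADX+ADR and 3 in WT ADX+DEX. With age as a covariate they were 9 for adrenalectomy in WT mice at ZT12, 12 for WT ADX+ADR against WT sham at ZT12, 1 for RE-RE sham against WT sham at ZT12, 1 for time in WT ADX+ADR, and 13 and 5 for the difference between genotypes. With equal medians they were 2 for RE-RE ADX against RE-RE sham at ZT12, 0 for time in WT ADX+ADR and 4 for the difference between genotypes at ZT12, and on log2(FPKM + 1) 1 for time in WT ADX+ADR. With only the groups compared they were 0 and 0 for RE-RE ADX against RE-RE sham, 1 and 0 for RE-RE sham against WT sham, 2 for WT ADX+ADR against WT sham at ZT12, 7 for WT ADX+DEX against WT ADX+ADR at ZT12, 0 for time in WT ADX, WT ADX+ADR and WT ADX+DEX, and 4 for the difference between genotypes at ZT12. Without the 7 libraries they were 0 and 0 for RE-RE ADX against RE-RE sham, 1 and 0 for RE-RE sham against WT sham, 2 for WT ADX+ADR against WT sham at ZT12, 1, 1 and 0 for time in WT sham, WT ADX and WT ADX+ADR, and 6 and 1 for the difference between genotypes.

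With the replicate number as a block and only the groups compared, counts were 0 and 2 for WT ADX against WT sham, 0 and 0 for RE-RE ADX against RE-RE sham, 4 for WT ADX+ADR against WT ADX at ZT12, 1 for WT ADX+ADR against WT sham at ZT12, 0 and 0 for RE-RE sham against WT sham, and 0 for the difference between genotypes at ZT12. Same-numbered libraries correlated at -0.14 to 0.25 in their deviations from group means, so the numbers were not taken as pairs. For WT ADX and WT sham at ZT0 the correlations were 0.22, -0.02 and 0.18.

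Leaving out each library in turn gave 32 to 41 and 19 to 31 calls for WT ADX against WT sham, 1 to 2 and 1 to 3 for RE-RE ADX against RE-RE sham, 22 to 25 and 27 to 40 for WT ADX+ADR and 30 to 35 and 23 to 29 for WT ADX+DEX against WT ADX, 3 to 8 for WT ADX+ADR against WT sham at ZT12, 8 to 15 for WT ADX+DEX against WT ADX+ADR at ZT0, 2 to 12 and 0 to 3 for RE-RE sham against WT sham, 14 to 30 and 1 to 10 for the difference between genotypes, 0 to 1 for the difference between time effects, and for time of day 1 to 6 in WT sham, 0 to 4 after dexamethasone, 0 to 5 after adrenaline and 0 to 3 in untreated WT ADX. Of 1954 values of 119 named pairs of member and comparison under alternatives, 324 lost the call and 0 reversed. Depth per library is not given with FPKM, which limits low members such as Cox4i2 and Atp5s most.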
